A study of Mus musculus with 2 samples.

Results

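Mast cell genes were followed across all tdTomato-positive cells of E14 mouse embryos. The set held 8 genes of the 32285 in the count table. They were picked by symbol, with their high level in mast cells and their spread over other cells already known from these data: Cma1, Cpa3, Tpsb2, Tpsab1, Mcpt4, Ms4a2, Hdc and Kit. Mast cells were the cells holding 20 or more unique molecular identifiers (UMIs, each a counted RNA molecule) of Cma1, Cpa3 and Tpsb2 together. By this rule 348 of the 22868 cells that passed the quality limits were mast cells, and 22520 were not. High counts of those 3 genes in mast cells therefore describe the choice and are no finding.

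The study asked what loss of the splicing factor SRSF2 does to the descendants of Myf5-expressing cells. Decapitated and eviscerated embryos gave trunk and limb cells, which were sorted on tdTomato and sequenced from the 3' end in droplets. Embryos of both genotypes carried Myf5-Cre, a floxed Srsf2 allele and a tdTomato reporter that Cre switches on. SRSF2f/f/Myf5-Cre/tdT embryos had both Srsf2 alleles floxed, and SRSF2f/w/Myf5-Cre/tdT embryos had a single floxed allele beside a wild-type one. Each genotype was 1 library of 1 sample, so no test between genotypes was possible, and every interval below is a 95% interval that covers counting error only. Every share is a share of sorted cells, and the tdTomato gate set which cells could be counted. Whether the mast cells themselves carried tdTomato was not tested. Fewer mast cells in the embryo and fewer mast cells inside the gate cannot be told apart.

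Which library is which genotype is uncertain. The sample titles give f/f to a library of 15268 barcodes and f/w to a library of 12498, matched through the cell number in each summary. Other headings of the study give the opposite. The cell numbers that the study kept make the control library the smaller one, as the titles do. Srsf2 itself stood at 219.0 CPM (UMIs of a gene per 1000000 UMIs of the same cells) outside mast cells in the library labelled f/f. In the one labelled f/w it stood at 153.8. Cells with skeletal muscle markers numbered 1797 and 93, or 14.3% and 0.899% of cells. The study reported a far smaller share of skeletal muscle cells in the mutant than in the control. The Srsf2 and muscle counts thus went against the titles. The Srsf2 count is a 3' tag, and whether it lies in the deleted part was not tested. The libraries are therefore called "labelled f/f" and "labelled f/w", and no direction below can be assigned to a genotype. Median depth after the quality limits was 10751 and 9480 UMIs per cell.

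Mast cells are long-lived tissue cells that store proteases and amines in granules. Embryonic mast cell precursors settle in skin and connective tissue, where stem cell factor, the ligand of the receptor tyrosine kinase KIT, sustains them. The granules hold chymases such as CMA1 and MCPT4, the tryptases TPSB2 and TPSAB1, and carboxypeptidase A3 (CPA3). Histidine decarboxylase (HDC) makes histamine, and MS4A2 is the beta chain of the high-affinity IgE receptor. In droplet sequencing, RNA from broken cells floats freely and can be captured with any cell, which matters most for very abundant messages.

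The genes lie on different chromosomes apart from 2 pairs (GENCODE M21, GRCm38). Cma1 (ENSMUSG00000022225, chr14:55941451-55944675, minus strand) and Mcpt4 (ENSMUSG00000061068, chr14:56059629-56062313, minus strand) were 114953 bases apart, and Tpsb2 (ENSMUSG00000033825, chr17:25366305-25369098, plus strand) and Tpsab1 (ENSMUSG00000024173, chr17:25343245-25345562, minus strand) 20742. Cpa3 (ENSMUSG00000001865) is at chr3:20215620-20242181, Hdc (ENSMUSG00000027360) at chr2:126593667-126619299 and Ms4a2 (ENSMUSG00000024680) at chr19:11615523-11623719, all on the minus strand. Kit (ENSMUSG00000005672) is at chr5:75574916-75656722 on the plus strand. The longest run of identical bases was 23 between the Tpsb2 and Tpsab1 transcripts and 27 between those of Cma1 and Mcpt4, and no stretch of 50 bases was shared in either pair. No gene overlapped a member on the opposite strand.

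Promoter letters are shown for the 3 members whose window held AGATAA or TGATAA, the only GATA letters searched. Beside them stands Cma1, which had the most UMIs of all members over both libraries. RefSeq promoters (GRCm38.p6) were found for 6 of the 8 members and not for Tpsb2 and Tpsab1. Each line gives the 110 bases before the start site, 5′ to 3′ on the strand of the gene, and capitals mark AGATAA or TGATAA (letters bound by GATA factors) or TATAAA, on either strand.
Cma1, chr14:55944676-55944785, minus: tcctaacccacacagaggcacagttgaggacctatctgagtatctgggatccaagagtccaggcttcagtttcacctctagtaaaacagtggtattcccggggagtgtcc
Cpa3, chr3:20242182-20242291, minus: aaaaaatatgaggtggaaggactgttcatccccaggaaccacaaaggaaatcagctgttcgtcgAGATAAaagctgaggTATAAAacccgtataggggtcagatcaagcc
Mcpt4, chr14:56062311-56062420, minus: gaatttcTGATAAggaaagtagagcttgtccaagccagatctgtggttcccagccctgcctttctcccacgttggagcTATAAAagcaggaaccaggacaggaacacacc
Ms4a2, chr19:11623720-11623829, minus: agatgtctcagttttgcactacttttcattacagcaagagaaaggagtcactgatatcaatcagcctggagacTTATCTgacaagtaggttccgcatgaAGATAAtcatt
Over the full window of 300 bases, AGATAA or TGATAA occurred in 3 of the 6 members (Cpa3, Mcpt4, Ms4a2) and in 18.95% of 27025 promoters, and TATAAA in 2 of 6 (Cpa3, Mcpt4) and in 14.2%. The E-box letters CATGTG or CACATG were in 0 of 6 (14.1% of promoters), as were CACCTG or CAGGTG (20.0%). These are matches of letters in a short window and no evidence of binding.

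The mast cells stood apart in the count. Of the cells outside them, 12485 of 12490 in the library labelled f/f and 10012 of 10030 in the one labelled f/w had fewer than 5 UMIs of the 3 defining genes together. Above the limit, 32 of 33 and 305 of 315 mast cells had 120 or more. Just inside it stood 1 cell with a sum of 25 (10 Cma1, 15 Cpa3 and 0 Tpsb2 UMIs, of 1545 in all), followed by cells with 62 and 66. Just outside stood 2 cells with a sum of 18, of which one had 18 Cpa3 and 0 Cma1 UMIs. The others between 5 and 18 were mostly cells with Cpa3 and little or no Cma1.

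**Figure D1:**
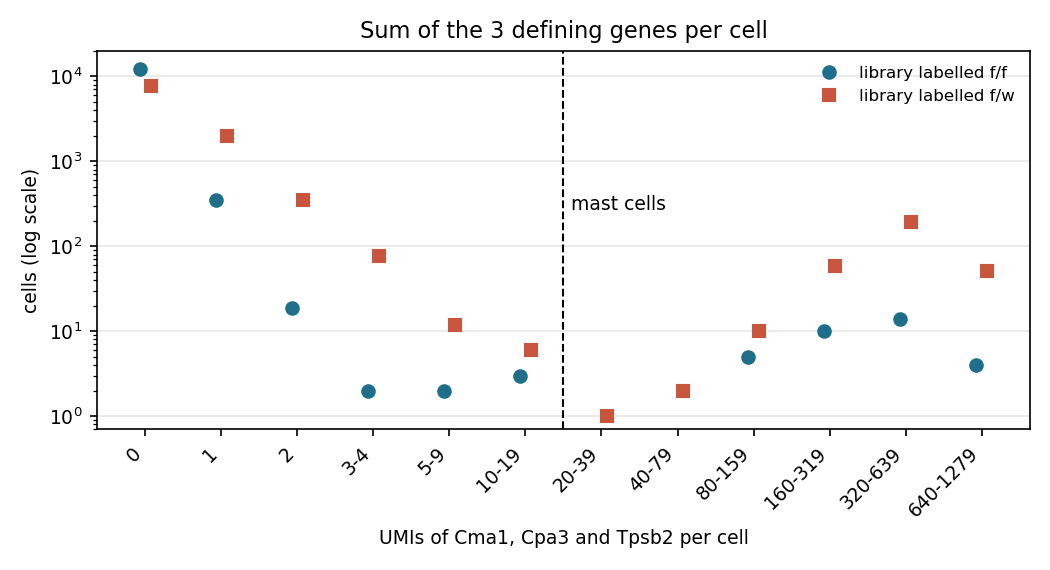
Cells by their summed UMIs of Cma1, Cpa3 and Tpsb2 (x axis, classes of widening range) on a logarithmic count axis, for the library labelled f/f (circles) and the library labelled f/w (squares). Few cells lie near the dashed limit of 20 UMIs: 5 and 18 cells have 5 to 19 UMIs, and 1 cell has 20 to 59.

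Mast cells were 33 of 12523 cells in the library labelled f/f, or 0.264% (exact binomial interval 0.181 to 0.370), and 315 of 10345 in the library labelled f/w, or 3.04% (2.72 to 3.39). The share was 11.6-fold higher under the f/w label, with an interval of 8.08 to 16.5. Mast cells gave 0.540% and 5.02% of all UMIs of the kept cells. They were deep, with a median of 23221 UMIs under f/f and 17559 under f/w against 10732.5 and 9282.5 for the other cells. Another cell type's marker limit was also passed by 3 of the 33 and 56 of the 315, most often the mesenchymal one (3 and 26), and the part of doublets in these was not tested.

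Other mast cell genes were mostly high in the same cells. Of 34 further mast cell genes, 25 stood at least 2-fold higher in mast cells than in the other cells of the library labelled f/f, among 28 with 20 or more UMIs, and 27 of 30 did so under f/w. Over all genes those shares were 11.2% and 8.28%, and 47.9% and 45.2% of genes stood at least 2-fold lower. Among the further mast cell genes with 20 or more UMIs, Syk, Cd63 and Ptgs1 were the exceptions in both libraries. Ptgs1 stood past 2-fold lower in mast cells, at 1.22 against 6.38 CPM under f/f and 1.13 against 7.28 under f/w. Its mast cell levels rest on 1 and 7 UMIs, and under f/f the log2 interval (−7.69 to 0.097) included 0. Syk had 2 UMIs in mast cells labelled f/f, with a log2 difference of 0.96 (−2.09 to 2.84). The members themselves passed in 7 of 7 and 8 of 8 cases with none lower, from which nothing is read since the rule used this contrast. The highest of the 34 were Srgn, the core of the granule proteoglycan serglycin (2938 and 3789 CPM in mast cells, f/f then f/w), and Fcer1g, the gamma chain of Fc receptors (894 and 1575). Gzmb, a granule protease, stood at 792 and 1011, Cyp11a1, which starts steroid synthesis, at 625 and 933, the cytokine receptor gene Csf2rb at 833 and 836, and the protease inhibitor Serpinb1a at 373 and 857. Cd63, a membrane protein of granules, did not differ beyond counting error under f/f (857 in mast cells against 871 in other cells). Under f/w it was higher in mast cells (1083 against 788), by 0.46 on the log2 scale (0.42 to 0.49).

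Some of the 34 further mast cell genes had few or no UMIs. Fcer1a, the IgE-binding alpha chain of the high-affinity IgE receptor, had 0 UMIs in the 33 mast cells labelled f/f, which allows up to 3.67 CPM, and 1 UMI in the 315 labelled f/w. Mrgprb2, a receptor of connective tissue mast cells, had 0 and 2 UMIs, and Mcpt9 none in either library. Outside mast cells Fcer1a, Mrgprb2 and Mcpt9 had 0 UMIs in both libraries, so they give no contrast with other cells. C1qa of macrophages was at 0 in the mast cells of both libraries. Genes of other cell types were not all absent. Col2a1, Hbb-bs and Col1a1 were seen in 28, 23 and 21 of the 33 mast cells labelled f/f. Under f/w they were seen in 258, 192 and 148 of the 315. Their levels were lower than outside mast cells, for Col2a1 117 and 372 against 2322 and 2459 CPM. Cd3g stood at 8.56 and 11.2 CPM in mast cells against 4.72 and 37.5 outside. Myod1 had 2 and 1 UMIs in mast cells and S100a8 0 and 14. These genes were singled out after their values were seen.

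The 2 chymase genes differed widely from each other within mast cells. Cma1 ran from 3 to 524 UMIs per cell (median 165) in the 33 cells labelled f/f and from 0 to 655 (median 225) in the 315 labelled f/w. Summed, it reached 6884 CPM (interval 6705 to 7066) and 12491 (12403 to 12579). The cells overlapped broadly although the summed levels differed by 0.86 on the log2 scale (0.82 to 0.90). Mcpt4, in contrast, was at 0 in 28 of 33 and 250 of 315 mast cells. Its 14 UMIs under f/f came from 5 cells with at most 6 each. Under f/w it had 1197 UMIs, of which the 5 highest cells held 66.2%, the top ones with 254 and 187. The log2 difference of 3.50 (2.75 to 4.38) thus rested on few cells, and its interval leaves out the spread between cells.

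Mcpt4 was concentrated in 17 cells labelled f/w with 10 or more UMIs. These cells stood at 3854 Mcpt4 CPM, against 26.4 in the other 298. Their Cma1 level was 19691 against 12161 CPM, and their Tpsb2 level 5176 against 3401. Mcpt2, another chymase gene of the same cluster, was at 55.5 against 13.4. As the cells were chosen by Mcpt4, these levels are given as a description. Their median depth was 14029 UMIs, lower than the 17687.5 of the rest.

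The tryptases followed Cma1 more than Mcpt4. Tpsb2 had a median of 45 UMIs per mast cell under f/f (range 0 to 115) and 63 under f/w (0 to 255), with levels of 1691 (1603 to 1782) and 3479 (3432 to 3525) CPM. It was absent from 4 mast cells in each library. Tpsab1 was far sparser, with medians of 3 and 6 UMIs (highest 17 and 39) and levels of 165.0 (138 to 195) and 414 (398 to 430). Differences between libraries were 1.04 (0.96 to 1.12) for Tpsb2 and 1.33 (1.08 to 1.59) for Tpsab1 on the log2 scale.

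Cpa3, the carboxypeptidase, was found in every mast cell. Mast cells held 63 to 450 Cpa3 UMIs under f/f (median 169) and 15 to 369 under f/w (median 142). Its level was 7040 (6860 to 7225) and 7760 (7691 to 7830) CPM, a log2 difference of 0.14 (0.10 to 0.18). In the 33 cells labelled f/f the level of Cpa3 was close to that of Cma1, whereas in the 315 labelled f/w it was lower.

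Hdc was present in every mast cell of both libraries. Its range was 14 to 151 UMIs per cell under f/f (median 62) and 7 to 163 under f/w (median 66), and its level 2491 (2384 to 2602) and 3561 (3514 to 3608) CPM. Prss34, a mastin protease gene also used by basophils, stood at 295 and 332 CPM in mast cells, and Mcpt8, known as a basophil gene, at 101.5 and 37.6.

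Kit, the receptor gene with the more UMIs, stood below Cma1, Cpa3, Tpsb2 and Hdc and above Tpsab1 and Mcpt4 in both libraries, and Ms4a2 was sparse. Kit had medians of 16 UMIs per mast cell under f/f (0 to 43) and 12 under f/w (0 to 54), and was seen in 32 of 33 and 307 of 315 cells. Its levels were 661 (607 to 720) and 758 (737 to 780) CPM, a log2 difference of 0.20 (0.07 to 0.33). Ms4a2 was found in 15 of 33 and 117 of 315 mast cells with at most 6 UMIs in any cell. It was the single member that stood lower under f/w, at 29.5 (25.4 to 34.1) against 51.3 (37.0 to 69.4) CPM. After all mast cells were thinned to 2000 UMIs, Ms4a2 was left in 2 of 33 and 18 of 314 cells, and its log2 difference was −0.08 (−2.14 to 3.07).

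**Figure D2:**
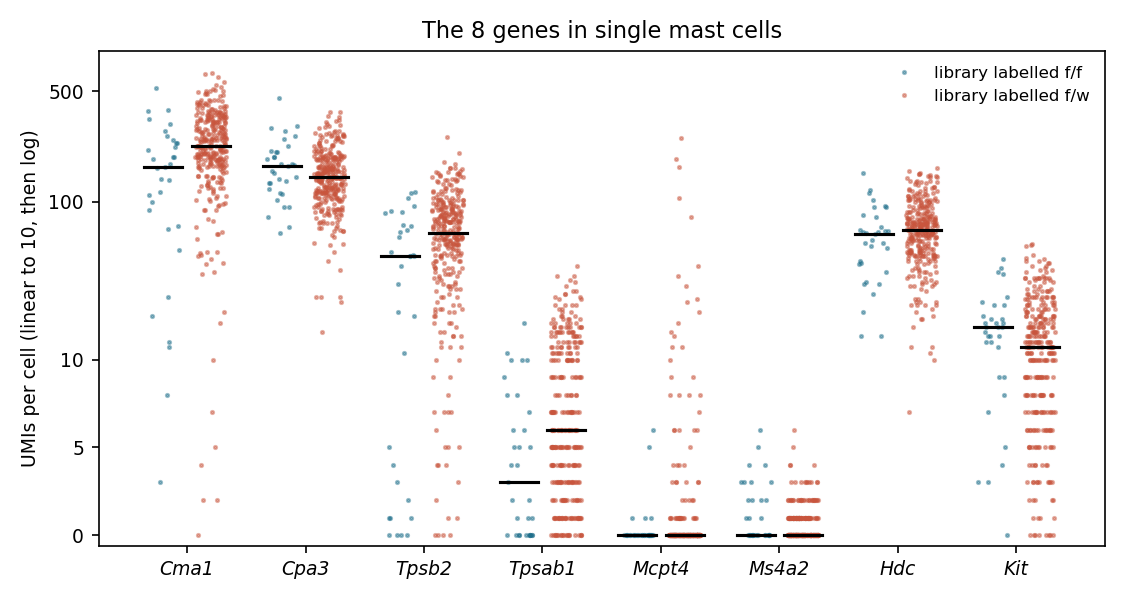
UMIs of each gene in single mast cells (y axis, linear up to 10 and logarithmic above), 33 cells of the library labelled f/f at left and 315 of the library labelled f/w at right of each pair, each point a cell and each bar the median. The cells of both libraries overlap for all 8 genes, and Mcpt4 is at 0 in most cells with a few at 80 to 254.

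Within mast cells, then, 3 of the 8 members (Tpsb2, Tpsab1 and Mcpt4) were over 2-fold higher under the f/w label and none over 2-fold lower. Among the 10061 genes with 20 or more UMIs in the mast cells of both libraries together, 8.74% were past 2-fold higher and 7.34% past 2-fold lower. The median log2 difference was 0.69 for the members and −0.11 for all those genes. Among the 34 further mast cell genes, 28 had 20 or more UMIs. Of these, 4 were past 2-fold higher and 3 past 2-fold lower, with a median of 0.36. Summed, the 8 members stood 0.59 higher (0.57 to 0.62) on the log2 scale. Mast cells labelled f/f also held more of the proliferation messages Mki67 (198 against 79.9 CPM) and Top2a (452 against 150.3). Outside mast cells Mki67 stood at 148 and 83.6 and Top2a at 313 and 163, and the part of cell cycle in the differences was not tested.

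Across single mast cells labelled f/w, levels scaled to each cell's depth rose and fell together for the main granule genes. Spearman's rho over the 315 cells was 0.75 for Cma1 with Tpsb2, 0.69 for Cma1 with Cpa3 and 0.51 for Cma1 with Hdc. It was 0.16 for Cma1 with Kit. In the 33 cells labelled f/f the same pairs gave 0.83, 0.81, 0.45 and −0.12. These are descriptions over cells of 1 library that share its depth and free RNA, and 3 of the genes chose the cells.

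Outside mast cells every member was found at low level in both libraries. Cma1 was present in 199 of 12490 other cells under f/f, or 1.59% (1.38 to 1.83), and in 1528 of 10030 under f/w, or 15.2% (14.5 to 15.95). Its level was 1.42 (1.24 to 1.62) and 14.9 (14.2 to 15.6) CPM. That is 3.39 higher on the log2 scale (3.18 to 3.60). The mast cell share of cells, a different measure, differed by 3.53 (3.01 to 4.05). Other members differed outside mast cells by 0.20 (Ms4a2) to 5.04 (Tpsab1), with 2.57 for Cpa3. In nearly every cell outside mast cells with Cma1, it was 1 or 2 UMIs. Only 2 cells in each library had 5 or more.

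The other proteases showed the same order. Cpa3 stood at 1.24 (1.07 to 1.43) and 7.39 (6.91 to 7.90) CPM outside mast cells, Tpsb2 at 0.325 (0.240 to 0.430) and 4.02 (3.66 to 4.40), Tpsab1 at 0.0265 (0.00723 to 0.0679) and 0.874 (0.712 to 1.06), and Mcpt4 at 0.0332 (0.0108 to 0.0774) and 0.240 (0.159 to 0.347). The Tpsab1 and Mcpt4 values under f/f rest on 4 and 5 UMIs. Together the 5 protease genes stood 3.17 higher (3.03 to 3.31) on the log2 scale under the f/w label, a sum set up after the values were seen because Kit, which other cells express, dominates the sum of all 8.

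Hdc differed by nearly as much as Cpa3, with log2 differences of 2.53 (2.28 to 2.78) and 2.57 (2.34 to 2.81). It stood at 1.11 (0.952 to 1.30) and 6.42 (5.97 to 6.90) CPM outside mast cells, and Kit at 9.16 (8.68 to 9.65) and 23.1 (22.2 to 24.0). Ms4a2 had 9 UMIs under f/f and 8 under f/w, each in a different cell, and its log2 difference of 0.20 spanned −1.38 to 1.74. Of the 7 members with 20 or more UMIs, all were past 2-fold higher under f/w and none lower, where 9.55% of the 19044 genes tested were higher and 2.90% lower. The members were named with these levels known, so nothing is read from that count.

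As a share of each gene's own UMIs, the part outside mast cells was small for Cma1, Cpa3 and Tpsb2. It was 3.66% of Cma1 UMIs under f/f (3.19 to 4.17) and 2.20% under f/w (2.10 to 2.31), and for Cpa3 3.14% (2.72 to 3.62) and 1.77% (1.66 to 1.89). Of the Cpa3 UMIs outside mast cells, 23.5% under f/f lay in 6 cells with 3 or more each. Under f/w 18.3% lay in 24 such cells. Of these cells, 5 and 17 had 0 Cma1 UMIs. Tpsb2 gave 3.42% (2.54 to 4.50) and 2.14% (1.95 to 2.34), and Tpsab1 2.88% (0.790 to 7.20) and 3.84% (3.15 to 4.65). Mcpt4 gave 26.3% (9.15 to 51.2) from 5 of 19 UMIs and 2.29% (1.52 to 3.29), and Ms4a2 17.6% (8.40 to 30.9) from 9 of 51 UMIs and 4.21% (1.84 to 8.13). Hdc had 7.62% (6.54 to 8.80) and 3.30% (3.07 to 3.54) of its UMIs there. For Kit the part was 71.8% (69.8 to 73.8) and 36.6% (35.5 to 37.7). Thus the library labelled f/f, with the smaller mast cell share, had lower levels outside mast cells but a larger part of its Cma1, Cpa3, Tpsb2 and Hdc UMIs there.

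Set against the level over all cells of the library, the level of Cma1 outside mast cells was 3.68% under f/f and 2.32% under f/w. Cpa3 gave 3.16% and 1.86%, Tpsb2 3.44% and 2.25%, and Hdc 7.66% and 3.48%. Kit, at 72.2% and 38.5%, stood well above them in both libraries.

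Cma1 outside mast cells was alike in nearly every cell type. Among types of at least 50 cells under f/w it ran from 11.5 CPM in lymphoid-like cells (7.51 to 16.8) to 18.2 in Schwann-like cells (11.1 to 28.2), with 14.9 (13.3 to 16.6) in mesenchymal-like, 14.2 (11.9 to 16.8) in chondrocyte-like, 13.2 (11.5 to 15.2) in endothelial-like and 15.8 in neuron-like cells (114 UMIs). These neighbours do not differ beyond their intervals. Under f/f the 8 types of that size held 0.806 to 4.37, again with overlapping intervals. Those values rest on few UMIs. Mesenchymal-like, muscle-like and chondrocyte-like cells held 51, 29 and 18, and neuron-like and endothelial-like cells 6 and 4. Intervals from such low counts can overlap even where levels differ. The 9 structural types together (muscle, cartilage, bone, mesenchyme, endothelium, neurons, Schwann cells, pericytes and keratinocytes) stood at 1.34 (1.11 to 1.61) and 14.5 (13.5 to 15.5). Only neutrophil-like cells under f/w had an interval above that level, with 10 UMIs in 18 cells or 57.2 CPM (27.4 to 105), and no cell type in either library had an interval below it.

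Cpa3 did not share this evenness. Lymphoid-like cells held 16 Cpa3 UMIs in 18 cells under f/f, or 43.9 CPM (25.1 to 71.3), and 109 in 159 cells under f/w, or 48.2 (39.6 to 58.1). Structural types stood at 1.09 (0.878 to 1.33) and 5.71 (5.11 to 6.36). The lymphoid-like intervals of the libraries overlapped, whereas those of the structural types did not. Lymphoid-like cells were the single type whose Cpa3 interval lay above the structural level in both libraries. Among them, Cpa3 was seen together with Kit in 6 of 18 and 33 of 159 cells, and without Kit in 1 and 17. Cells with Kit held 15 of the 16 Cpa3 UMIs under f/f and 81 of 109 under f/w. Such cells were 15 of all 18 and 76 of all 159 lymphoid-like cells. Kit was seen without Cpa3 in 9 and 43, and neither gene in 2 and 66. Of the markers that chose them, the lymphoid-like cells with Cpa3 held 29 and 312 UMIs of Cd3e, part of the T cell receptor complex, and 646 and 2457 of Gzma, a protease of cytotoxic cells. Il7r, another of those markers, had fewer UMIs in the same cells, at 2 and 42. Lymphoid-like cells without Cpa3 were not compared for these markers. Cma1 in all lymphoid-like cells was 2.75 (0.0695 to 15.3) and 11.5 (7.51 to 16.8) CPM, within the intervals of other types.

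**Figure D3:**
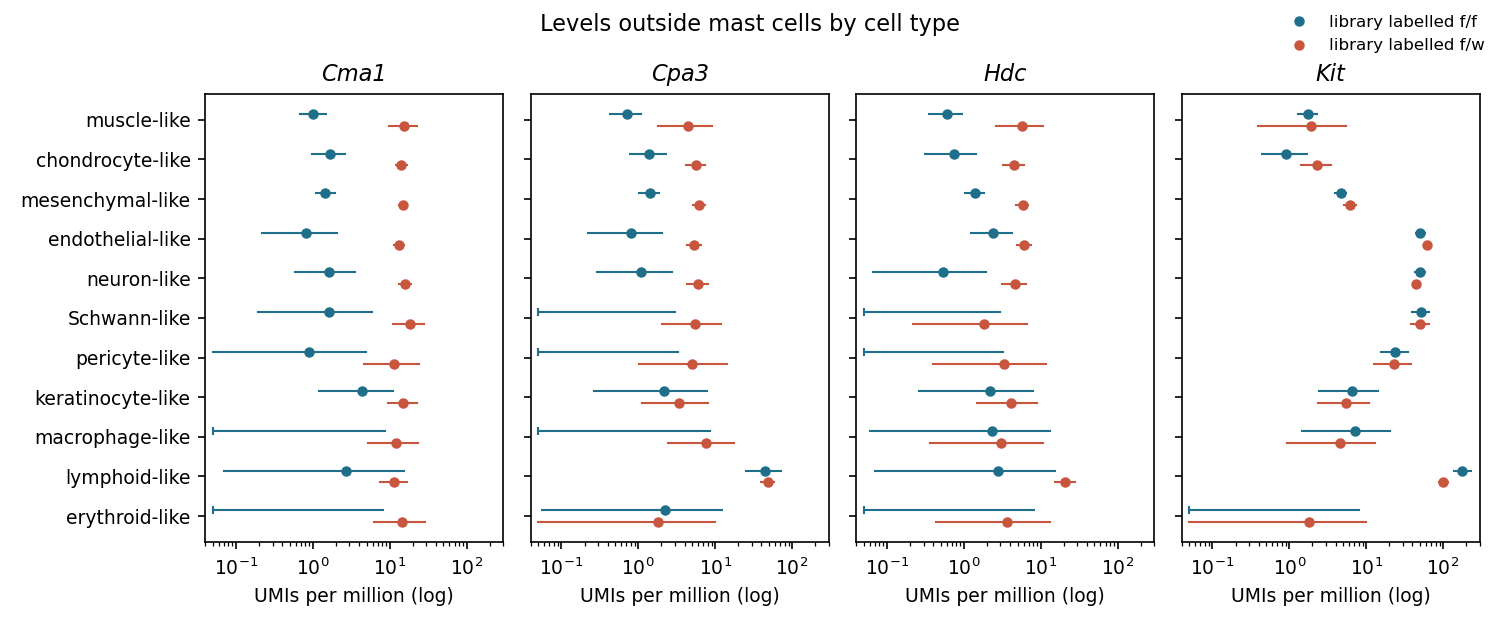
Levels of Cma1, Cpa3, Hdc and Kit outside mast cells (CPM within each cell group, logarithmic axes) in 11 cell types, for both libraries, as points with exact Poisson 95% intervals. A tick at the left edge stands for 0 UMIs, and interval ends below 0.05 are drawn there. Cma1 keeps to 11.5 to 18.2 in the library labelled f/w, Cpa3 is high in lymphoid-like cells of both libraries, and Kit varies between types.

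Part of the Hdc UMIs outside mast cells lay in a few rich cells. Its structural level was 1.04 (0.836 to 1.28) under f/f and 5.35 (4.77 to 5.97) under f/w. Lymphoid-like and neutrophil-like cells under f/w lay above that, at 20.8 (15.3 to 27.6) and 57.2 (27.4 to 105) CPM, and 27 of the 47 Hdc UMIs of the lymphoid-like cells came from 1 cell. Under f/f, endothelial-like cells lay above it, at 2.42 (1.25 to 4.23) from 12 UMIs, and muscle-like cells below it, at 0.599 (0.349 to 0.958). Over all types, 2 cells under f/f and 7 under f/w held 5 or more Hdc UMIs, together 17.9% and 18.1% of the Hdc UMIs outside mast cells. None of these 9 cells had a Cma1 or Tpsb2 UMI. Cpa3 was seen in all but the cell with 20 Hdc UMIs, at 1 to 18 UMIs. Their place outside mast cells thus rested on their Cpa3 count. By the same rule, a cell labelled f/w with 0 Cma1, 66 Cpa3 and 71 Hdc UMIs was a mast cell. The richest of the 9 had 36 Hdc UMIs with 111 of Mcpt8, and the richest under f/f had 17 with 26 of Mcpt8. The other cell under f/f had 13 with 5. Those under f/w with 27, 23, 20, 15, 9 and 6 Hdc UMIs had 0, 1, 6, 0, 0 and 0 of Mcpt8. Cells with 3 or more Mcpt8 UMIs outside mast cells numbered 2 in each library.

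Kit was a gene of several cell types. Endothelial-like cells stood at 50.8 (44.7 to 57.5) CPM under f/f and 61.9 (58.1 to 66.0) under f/w, neuron-like cells at 50.7 (43.7 to 58.4) and 44.8 (40.1 to 49.98), and Schwann-like cells at 51.2 (39.3 to 65.5) and 50.1 (37.8 to 65.3). These did not order beyond their intervals except that endothelial-like cells exceeded neuron-like cells under f/w. Lymphoid-like cells were higher, at 178 (138 to 227) and 100.3 (87.7 to 114). Melanocyte-like cells, known to depend on KIT, reached 285 (142 to 509) and 262 (155 to 414) with just 7 and 8 cells. Muscle-like, chondrocyte-like and mesenchymal-like cells lay below the structural level in both libraries, at 1.76, 0.919 and 4.66 under f/f and 1.90, 2.28 and 6.15 under f/w.

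Within a type, the Kit intervals of the libraries overlapped in neuron-like, Schwann-like, pericyte-like, muscle-like and melanocyte-like cells. They did not overlap in endothelial-like cells, which were higher under f/w, or in lymphoid-like cells, which were higher under f/f. The Kit level over all cells outside mast cells differed by 1.34 (1.24 to 1.43) on the log2 scale, while the number of endothelial-like cells was 317 and 842, of neuron-like cells 414 and 750 and of lymphoid-like cells 18 and 159. The gene for its ligand, Kitl, stood at 46.8 and 64.1 CPM outside mast cells and at 3.67 and 10.4 in them. The melanoblast genes Dct (1.22 and 1.13) and Pmel (0 and 0.973) were near 0 in mast cells, as were Mlana (0 and 0.162), Tyrp1 (0 in both) and the germ cell genes Dppa3 (0 in both) and Pou5f1 (0 and 0.324).

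The shallowest and the deepest barcodes separated Kit from Cma1 further, whereas the depth classes between them did not. For this, all deposited barcodes outside mast cells were used, including those removed by the quality limits. Under f/w, barcodes of fewer than 1000 UMIs (median 487) held 7.06 Cma1 UMIs per 100 barcodes (5.87 to 8.43), and those of 20000 or more (median 26839) held 37.6 (34.4 to 41.0). Cma1 thus rose 5.32-fold over a 55.1-fold range of depth, and in CPM it fell from 131.0 to 12.2. Under f/f it rose 2.75-fold, from 1.14 (0.729 to 1.69) to 3.12 (2.29 to 4.16) per 100 barcodes, over a 40.9-fold range. Kit rose 86.1-fold and 52.4-fold over the same ranges, from 1.16 to 99.7 per 100 barcodes under f/w. The 5 proteases together rose 4.58-fold and 2.64-fold, and Hdc 7.30-fold and 3.78-fold. Barcodes just under the mast cell limit entered these classes. Among them was 1 under f/w with 18 UMIs of the 3 defining genes, of 544 in all. Whether they were mast cells was not tested. Without barcodes of 5 to 19 such UMIs, the shallowest class under f/w held 5.87 Cma1 UMIs per 100 (4.78 to 7.13). The deepest class held 37.5. The 5 proteases then stood at 11.8 and 64.7, against 15.2 and 69.5 with them, and Kit at 0.929 and 94.7. In the classes between, from 1000 to under 20000 UMIs, Kit stood at 9.88, 16.2 and 21.6 per 100 barcodes under f/w. Cma1 stood at 8.15, 13.6 and 18.9 there. Under f/f the same classes held 6.85, 8.42 and 7.97 for Kit and 1.15, 1.34 and 1.75 for Cma1. The larger Kit folds thus came from the first and the last step of depth. Cell types were not matched between the classes.

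**Figure D4:**
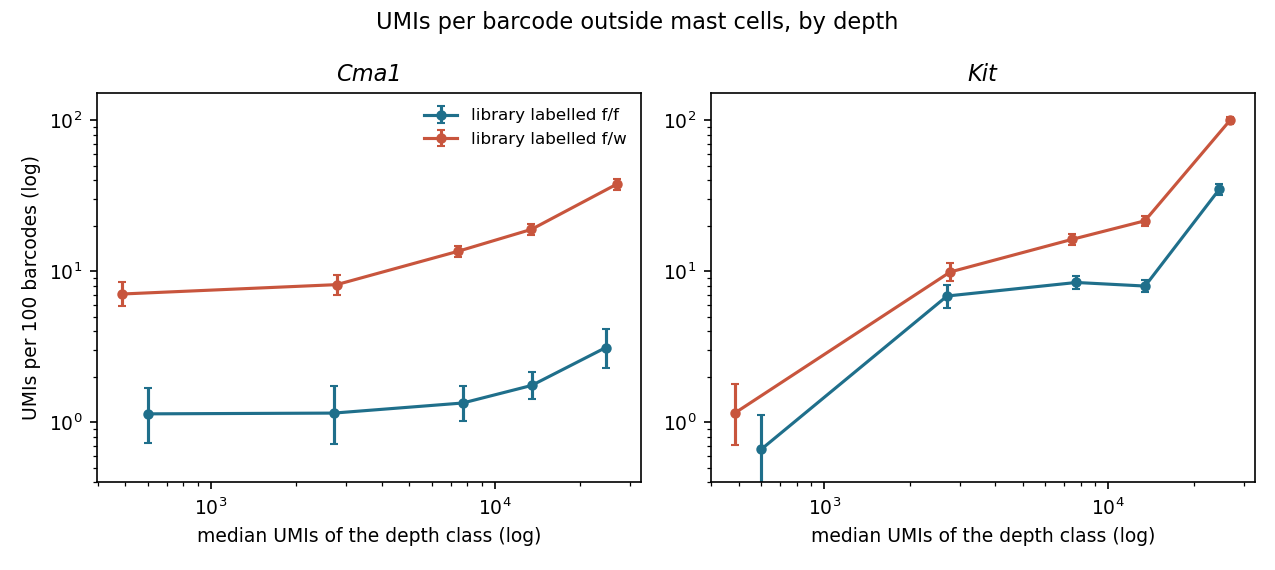
UMIs per 100 barcodes outside mast cells (logarithmic y axis) against the median depth of each of 5 depth classes (logarithmic x axis) for Cma1 and Kit in both libraries, with exact Poisson 95% intervals. Cma1 rises 5.32-fold and 2.75-fold from the shallowest to the deepest class, and Kit 86.1-fold and 52.4-fold. The Kit rise lies mostly in the first and the last step.

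At one depth, from 10000 to under 20000 UMIs, the Cma1 intervals of the types again overlapped. Mesenchymal-like cells under f/w held 18.2 Cma1 UMIs per 100 cells (15.4 to 21.4), chondrocyte-like 16.5 (12.8 to 21.04), endothelial-like 19.05 (14.7 to 24.3) and neuron-like 13.2 (8.09 to 20.5). Schwann-like cells were highest among types with over 10 UMIs, at 34.4 (17.2 to 61.5) from 11 UMIs in 32 cells. Under f/f, mesenchymal-like cells held 1.72 (1.11 to 2.53) and muscle-like cells 1.38 (0.819 to 2.18). Kit at that depth was 5.52 per 100 mesenchymal-like cells and 68.5 per 100 endothelial-like cells under f/w, and Cpa3 was 9.28 in the former and 40.5 in lymphoid-like cells. When cells outside mast cells were thinned to 2000 UMIs, leaving out 609 and 749 shallower cells, Cma1 was found in 0.269% (0.184 to 0.380) and 3.11% (2.77 to 3.49) of them.

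Each gene was then set against Cma1 in the same cells, inside mast cells and outside them. Tpsb2 stood in a like ratio. Mast cells held 24.6 and 27.8 Tpsb2 UMIs per 100 of Cma1, and structural types 21.6 (13.4 to 33.4) and 26.2 (22.5 to 30.4). Cpa3 under f/f stood at 102.3 in mast cells and 81.0 (61.1 to 107) in structural types, a log2 difference whose interval (−0.73 to 0.06) included 0. Of the 94 Cpa3 UMIs in those structural types, 14 came from a mesenchymal-like cell with 0 of Cma1. Another 9 came from a chondrocyte-like cell with 5 of Cma1. The f/f ratio thus rests in part on these cells just under the mast cell limit. Under f/w the Cpa3 ratio was lower in structural types, at 39.4 (34.6 to 44.8) against 62.1 (61.4 to 62.8) in mast cells, a log2 difference of −0.66 (−0.84 to −0.47). The lower ratio was seen in chondrocyte-like (39.4), mesenchymal-like (41.3), endothelial-like (40.5) and neuron-like cells (37.7), and not in barcodes of fewer than 1000 UMIs (75.4, interval 56.9 to 99.7).

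Other members moved the other way. Tpsab1 stood at 3.31 per 100 Cma1 UMIs in mast cells labelled f/w and at 5.81 (4.27 to 7.76) in structural types. Hdc was at 28.5 in mast cells and 36.9 (32.3 to 42.1) in structural types under f/w, and at 36.2 and 77.6 (58.2 to 103) under f/f. In chondrocyte-like cells it was 31.4 (21.7 to 44.5) under f/w and 44.4 (16.7 to 107) under f/f, both intervals reaching the mast cell ratio. Kit per 100 Cma1 UMIs was 6.07 in mast cells labelled f/w, 16.1 (9.74 to 25.3) in chondrocyte-like and 468 (402 to 547) in endothelial-like cells. In structural types, then, the interval of Tpsb2 held its mast cell ratio in both libraries, and those of the 6 other genes missed theirs in at least 1 library. Ms4a2 stood above its mast cell ratio in both, at 6.03 (2.37 to 12.8) against 0.746 under f/f and 0.712 (0.260 to 1.56) against 0.236 under f/w, from 7 and 6 UMIs. Mcpt4 stood above it under f/f, at 3.45 (0.924 to 9.07) against 0.249 from 4 UMIs, and its interval held the ratio under f/w, at 1.19 (0.567 to 2.19) against 1.55.

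**Figure D5:**
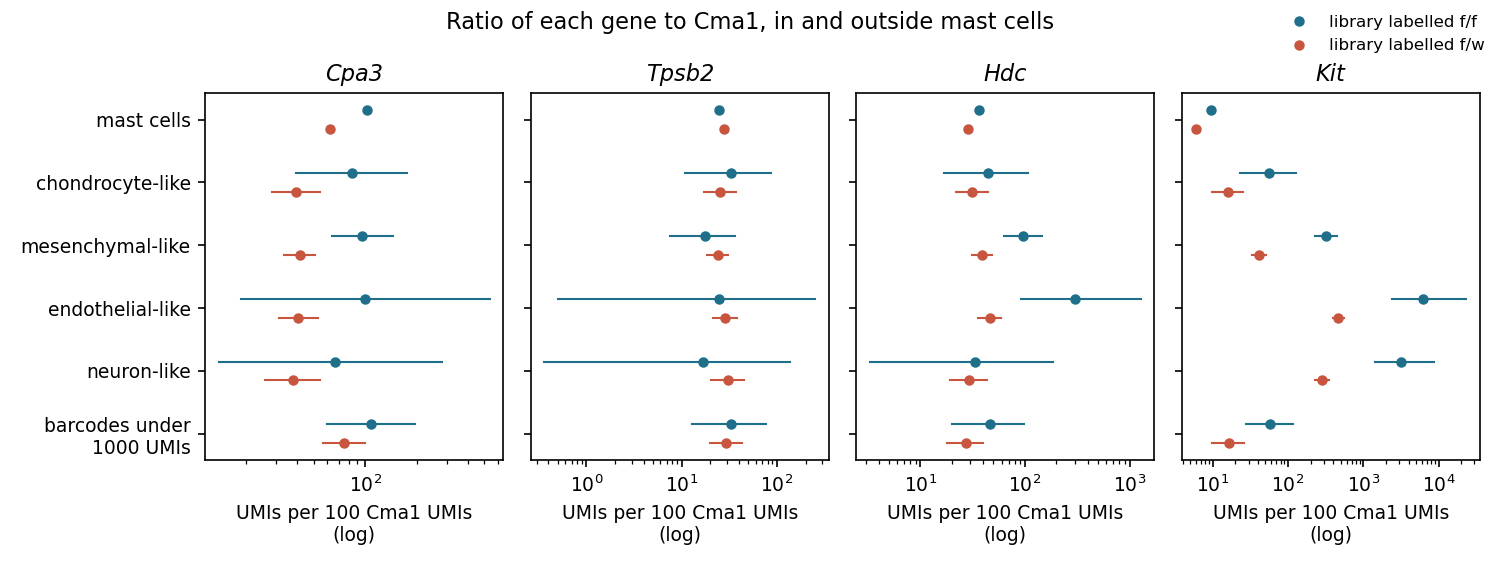
UMIs of Cpa3, Tpsb2, Hdc and Kit per 100 Cma1 UMIs (logarithmic axes, which differ between panels) in mast cells, 4 cell types outside them and shallow barcodes, with 95% intervals. Tpsb2 overlaps its mast cell ratio in every group, Cpa3 lies below it in the 4 cell types of the library labelled f/w (37.7 to 41.3 against 62.1), and Kit lies above it throughout.

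The 2 libraries shared 74 barcode sequences. In 4 of those pairs 1 partner was a mast cell. The 3 mast cells labelled f/w with 1023, 207 and 694 UMIs of the defining genes had partners under f/f with 5, 1 and 1, and the mast cell labelled f/f with 295 had a partner with 0. The share of all deposited barcodes outside mast cells with any such UMI was 2.86% under f/f and 21.9% under f/w.

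Genes outside the lists whose level across 19 groups of library and cell type was most like the summed members were Rab4a (Pearson's r 0.90), Cd200r4 (0.90), Cd244a (0.90), Il4 (0.88), Ccl17 (0.88), Ccr8 (0.88), Adora3 (0.88) and Icam4 (0.88), of 14478 genes compared on the log2(CPM + 1) scale. The 19 groups hold a single mast cell group, since that labelled f/f had under 50 cells, so the likeness rests largely on it. Il4, a cytokine of type 2 immunity, stood at 57.7 CPM in mast cells labelled f/w and 40.3 in those labelled f/f, and the adenosine receptor gene Adora3 at 128.6 and 122.3. Their UMIs lay outside mast cells to 3.52% and 4.11% under f/w, beside 2.20% for Cma1. The other like genes had 3.70% (Ccr8), 6.51% (Ccl17), 7.23% (Icam4), 7.31% (Cd200r4), 11.2% (Cd244a) and 49.3% (Rab4a) there.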

How the data were processed

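Single-cell RNA libraries of sorted tdTomato-positive trunk and limb cells were made with a 3' v3.1 droplet kit, 1 library per genotype. The authors aligned reads and counted UMIs with Cell Ranger 5.0.0, per the file headers and the study's methods, and down-sampled reads to aggregate the libraries; the submitters' processing notes also name Cell Ranger 3.1.0, STAR and Seurat 3.1.1. The deposited values are whole-number counts of UMIs per gene and barcode on mm10, not normalized, with a pair of run summaries. Barcode suffixes were tied to samples by the cell number in each summary.

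Barcodes more than 2 SD from their library's mean log10 UMIs or log10 genes, or above 10% mitochondrial counts, were removed, which left 12523 of 15268 and 10345 of 12498 barcodes. The 2 SD limit on high UMIs was the only step against doublets, and no doublet caller was run. Cells outside mast cells were called X-like from fixed marker genes with a minimum UMI sum for each of 14 types. Cells past more than 1 limit (1640 and 1481) or none (3900 and 3704) stayed without a type. Ahsp was not among the gene symbols, so the erythroid list held 3 genes.

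Levels are CPM, UMIs summed over cells per 1000000 UMIs of those cells. Intervals at the 95% level are exact Poisson for sums, exact binomial (Clopper-Pearson) for shares and exact conditional binomial for ratios of levels; the ratio of mast cell shares and the log2 differences between ratios to Cma1 have log-normal intervals. They cover counting error only, and a count of 0 allows up to 3 counts. Genes compared between libraries had 20 or more UMIs. The interval functions were tested on simulated data. With 1 library a group no test was made. The members and lists were chosen with earlier results of these data known. Genes named were the 8 members, Srsf2, the 6 highest of 34 other mast cell genes by level in mast cells (7 in all, since the libraries differ in 1), basophil, melanocyte and germ cell genes with Kitl and the 8 most alike in pattern; exceptions are said where they occur. Python 3.11.15, NumPy 2.4.6, SciPy 1.17.1, pandas 2.3.3 and matplotlib 3.10.9 were used.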

Additional observations from a re-analysis of the deposited data

How the results depend on the processing

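The mast cell share (3.53 on the log2 scale, f/w over f/f) lay between 3.39 and 3.56 under the 5 alternatives tried: no quality limits, a mitochondrial limit of 5%, mast cell limits of 10 or 50 UMIs, and mast cells past no other type's limit. The summed proteases outside mast cells (3.17) lay between 3.10 and 3.28 under 10 alternatives, 2 of them added after seeing the data. The 8-gene sum in mast cells (0.59) moved past its counting interval to 0.62 with a limit of 10 UMIs, 0.70 with mast cells past no other type's limit, 0.62 with the 5% mitochondrial limit, 0.57 without quality limits and 0.54 after thinning to 2000 UMIs. Outside mast cells the 8-gene sum (2.09) moved to 2.17 in cells of exactly 1 type and to 2.22 with the 5% mitochondrial limit. The cause of these shifts was not tested. As a share of the 8-gene sum, Hdc was lower outside mast cells than in them in both libraries and Mcpt4 lower under f/w, whereas per 100 UMIs of Cma1 they were higher, by 1.12 (Hdc, f/f), 0.60 (Hdc, f/w) and 0.053 (Mcpt4, f/w, interval −0.49 to 0.60) on the log2 scale; Kit takes a larger part of the sum outside mast cells. Of 402 recomputed values, 343 stayed within the interval of the reported value and 3, those just given, changed sign. No paired analysis was possible because each genotype is 1 library. Depth limits Tpsab1, Mcpt4 and Ms4a2 outside mast cells, where 4 to 9 UMIs were counted under f/f.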
